A study of Mus musculus with 4 samples.

Results

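The genes described here are 10 myeloid C-type lectin receptors, sugar-binding receptors of macrophages, dendritic cells and neutrophils: Cd209a, Cd209e, Mgl2, Clec10a, Mrc1, Clec4n, Clec4e, Clec4d, Clec7a and Clec4a2. They were chosen by name, with earlier results of these data known. Of the 10, 9 were measured among 27998 features. Clec7a, which encodes Dectin-1, was not analysed here. The cells came from breast tumours of the MT4788 line in wild-type FVB mice, taken on day 4, enriched for CD45 on magnetic columns and profiled by droplet-based single-cell RNA sequencing. There were 4 libraries: control mice received saline and PBS, the phenformin group saline and phenformin, the poly I:C group that agent and PBS, and the combination group both agents. Poly I:C mimics the double-stranded RNA of viruses and is sensed by Toll-like receptor 3 and cytosolic receptors, and phenformin is a biguanide that inhibits mitochondrial complex I. The labels used here give no dose, no age and no number of tumours per library. Each treatment had 1 library, so treatments were not tested against each other, and a treatment cannot be told apart from the tumours and the preparation of its library. All intervals are at the 95% level and cover counting error only.

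C-type lectin receptors bind sugars on microbes, dead cells and glycoproteins of the host. Clec4n (Dectin-2), Clec4e (Mincle) and Clec4d (MCL) are activating: they pair with the Fc receptor gamma chain Fcer1g and signal through the kinase Syk and the adaptor Card9 to NF-kB, whereas Clec4a2 (DCIR) carries an inhibitory motif that recruits phosphatases such as Ptpn6. Mrc1 (the mannose receptor) and the galactose-type lectins Mgl2 and Clec10a take up glycoproteins and are often used as markers of alternatively activated macrophages. Cd209a, a mouse relative of DC-SIGN, marks type 2 conventional and monocyte-derived dendritic cells, and Cd209e belongs to the same family.

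The receptors were read in 4 gates set on UMIs (unique molecular identifiers, each standing for 1 captured transcript). Groups of 4 values are given in the order control, phenformin, poly I:C and combination throughout. The macrophage gate (Csf1r, Cd68 and Adgre1 together 3 or more UMIs) held 2030, 2268, 2641 and 2759 cells. The dendritic gate (Flt3 of 1 or more and C1qa, C1qb and C1qc together under 5) held 286, 252, 182 and 189. The monocyte gate (Ly6c2 of 2 or more, the same C1q limit) held 1093, 1062, 1391 and 1409, and the neutrophil gate (S100a8 and S100a9 together 5 or more, with Csf3r or Cxcr2) 218, 178, 211 and 280. These came from 6095, 5453, 6619 and 8268 cells kept, at a median depth of 6543, 8312, 8430 and 5902 UMIs. A cell could be in several gates, and 616, 684, 715 and 640 cells were. Each pair of libraries shared between 8 and 21 cell barcodes. Levels (CPM) are the summed counts of a gate scaled to 1000000 UMIs, so that they are shares of its transcripts.

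The gates were not pure, and the values that bear on the receptors were these. Of the dendritic gate 50%, 48%, 54.4% and 60.3% had 2 or more UMIs of Siglech, a defining gene of plasmacytoid dendritic cells. Of its cells 154, 140, 118 and 130 were also in the monocyte gate, and 68, 83, 65 and 61 in the macrophage gate. The latter were 23.8%, 32.9%, 35.7% and 32.3% of the dendritic gate. In the monocyte gate 28.3%, 25.8%, 43.3% and 46.6% of cells had 2 or more Cd3 UMIs and 66.4%, 69.3%, 56.1% and 52.9% had any UMI of the macrophage gate's genes, so it is described below as Ly6c2-bearing cells. Macrophage markers in the neutrophil gate, all 8 present, summed to 2002, 5592, 10095 and 9920.4 CPM, and 11, 11, 35 and 31 cells had 5 or more C1q UMIs. The share of macrophage-gate cells with 5 or more C1q UMIs was 55%, 53%, 72.4% and 76.8%, higher in both libraries with poly I:C. T cells (2 or more Cd3 UMIs, none of the macrophage gate's genes) give the background: no receptor exceeded 10.9 CPM there.

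**Figure D1:**
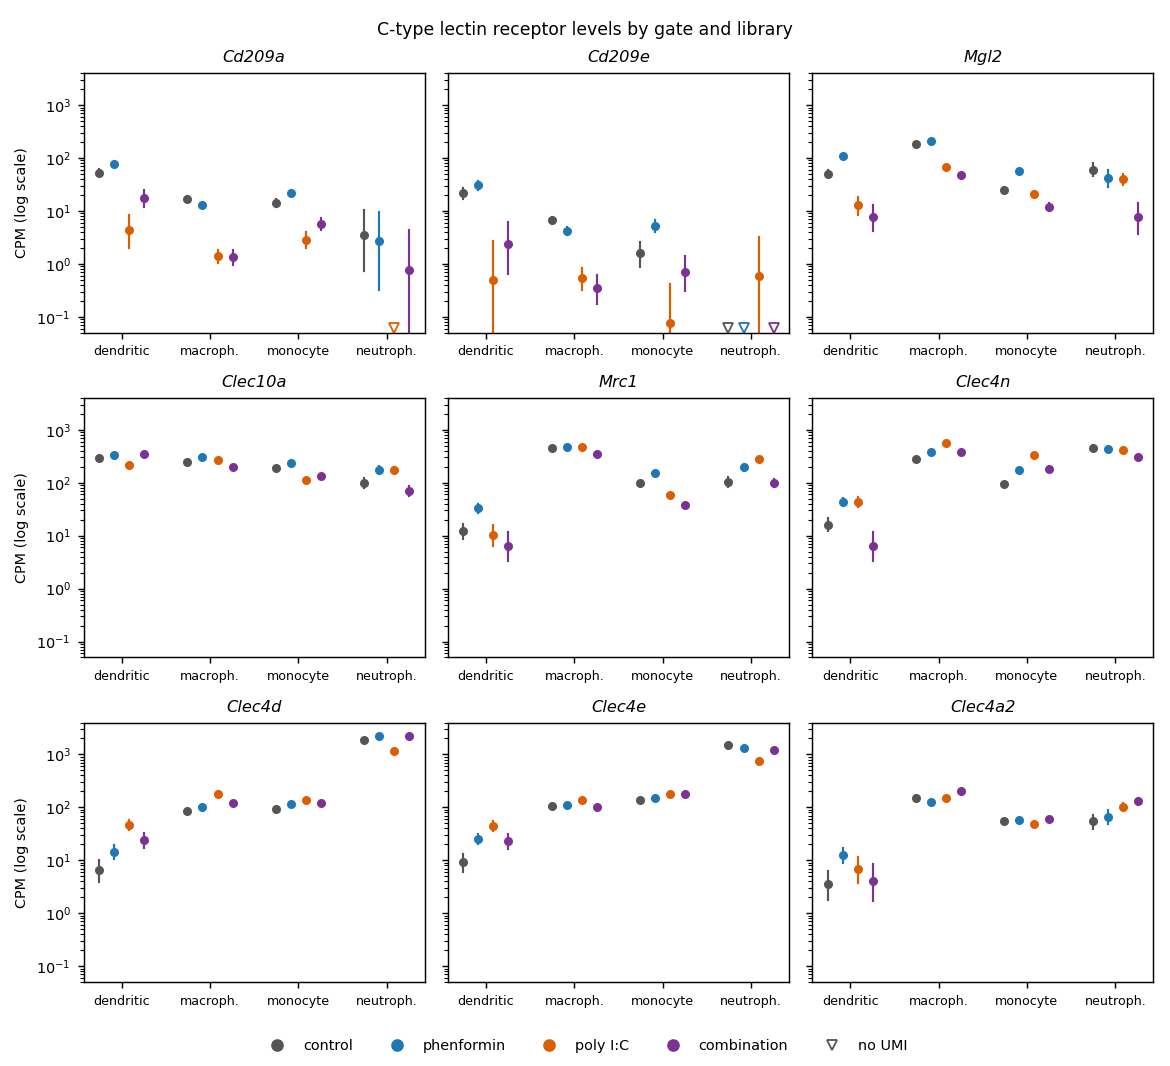
CPM of the 9 measured receptors (log axis) in the dendritic, macrophage, monocyte and neutrophil gates, 1 point per library with its exact Poisson interval. Clec4d and Clec4e stand highest in the neutrophil gate and Mrc1 in the macrophage gate of all 4 libraries, and Cd209a in the dendritic gate.

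The receptors divided by where their level was highest. Of the 4 gates it was the macrophage gate for Mrc1, Mgl2 and Clec4a2 in all 4 libraries, the neutrophil gate for Clec4d and Clec4e in all 4, and the dendritic gate for Cd209a in all 4 and for Clec10a in all but poly I:C. Clec4n was highest in the neutrophil gate in both libraries without poly I:C and in the macrophage gate in both libraries with it. Macrophage-gate cells were so many that they also held 43.4%, 58.8%, 76.8% and 52.6% of all Clec4d UMIs. The median macrophage-gate cell had UMIs of 4 of the 9 receptors in every library. The share of its cells with 4 or more was 53.2%, 60.4%, 68.1% and 51%, highest with poly I:C. The median depth of the macrophage gate was 9337, 12108, 12136 and 10361 UMIs, nearly the same with phenformin as with poly I:C.

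Cd209a and Cd209e were much lower in both libraries with poly I:C. The genes lie 98980 bases apart on chromosome 8 (chr8:3743397-3748984 and chr8:3847965-3854309, both on the minus strand, GRCm38), with no protein-coding gene annotated between them. Over all kept cells Cd209a had 841, 800, 84 and 130 UMIs and Cd209e had 451, 213, 21 and 25. Both were thus high in both libraries without poly I:C and low in both poly I:C libraries. The Cd209a ratio to control was 0.893 (0.809 to 0.985) in the phenformin library, 0.0753 (0.0594 to 0.0943) in the poly I:C library and 0.124 (0.103 to 0.15) in the combination. For Cd209e the same ratios were 0.443 (0.375 to 0.523), 0.0351 (0.0215 to 0.0543) and 0.0446 (0.0285 to 0.0667). The transcripts lay in few cells: 111, 119, 34 and 41 cells had a Cd209a UMI, and in control 10 cells held 350 of the 451 Cd209e UMIs. UMIs of 1 cell are not independent, so these counting intervals are too narrow.

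The bases upstream of the pair are shown because both genes had the same order of libraries. They are from RefSeq (GRCm38.p6), read 5′ to 3′ on the minus strand up to the gene's start and without bases that a GENCODE exon covers: chr8:3748985-3749234 for Cd209a and chr8:3854310-3854536 for Cd209e. Capitals mark matches, on either strand, to AGGAAG (core of PU.1 sites), TTGCNNAA (C/EBP), TTCNNNGAA (STAT) or GAAANNGAA (IRF).
Cd209a: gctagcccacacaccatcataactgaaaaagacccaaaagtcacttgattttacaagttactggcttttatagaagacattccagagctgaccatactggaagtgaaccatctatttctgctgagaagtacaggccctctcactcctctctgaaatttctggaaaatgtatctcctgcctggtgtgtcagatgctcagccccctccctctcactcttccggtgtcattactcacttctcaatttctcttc
Cd209e: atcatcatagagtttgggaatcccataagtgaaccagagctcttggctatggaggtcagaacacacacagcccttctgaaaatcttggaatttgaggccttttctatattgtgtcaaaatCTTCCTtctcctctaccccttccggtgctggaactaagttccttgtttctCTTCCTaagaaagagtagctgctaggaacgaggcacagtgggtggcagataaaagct
Cd209a has no match in this window, and Cd209e has 2, both to the PU.1 core on the opposite strand. Among 27025 RefSeq promoters 29.2% hold the PU.1 core letters within 250 bases, 9.55% the C/EBP, 7.18% the STAT and 7.16% the IRF letters. A match describes letters, not a bound site.

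Cells with 2 or more Cd209a UMIs numbered 81, 82, 17 and 19 and together held 811, 763, 67 and 108 Cd209a UMIs, so both the cells and their UMIs were fewer with poly I:C. H2-Ab1, a class II MHC gene, was found in 80, 79, 17 and 17 of them and Clec10a in 77, 77, 16 and 18. Flt3 was found in 23, 30, 3 and 10, so the dendritic gate missed most of them. The macrophage gate held 42, 41, 9 and 5, the dendritic gate 21, 29, 2 and 7, and 17, 18, 3 and 4 were in no gate. Cd209e was found in 42, 31, 1 and 4 and Mgl2 in 51, 43, 7 and 2 of these cells. The cells found with poly I:C or the combination thus nearly all had Clec10a, while few had Cd209e. Ly6c2 was found in 37, 42, 11 and 17 of them. T cells had 0, 2, 0 and 5 Cd209a UMIs in all.

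Within the dendritic gate Cd209a stood at 53.2 (45.4 to 62.1), 76 (66.6 to 86.3), 4.4 (2.01 to 8.35) and 17.8 (12 to 25.4) CPM. Poly I:C alone was lowest, at 0.0826 (0.0371 to 0.161) of control, and the combination stood between, at 0.334 (0.218 to 0.495) of control and 4.04 (1.87 to 9.67) times poly I:C alone, from 30 against 9 UMIs. By subset, Cd209a was highest in control in the 23, 32, 18 and 22 cells that lacked the markers of the other subsets, at 479.9, 223, 0 and 46.9 CPM. In cells with Ccr7 or Fscn1 (2 or more UMIs together), genes of migratory dendritic cells, it was 84.2, 188, 0 and 0 CPM in 73, 48, 35 and 37 cells. With 3 UMIs as the floor, poly I:C was at most 0.0857 and the combination at most 0.133 times control in that subset. In Siglech cells, where plasmacytoid cells fall, Cd209a was 22, 40, 10.3 and 22.5 CPM, and 22 of the 30 UMIs of the combination came from them. Cells with Xcr1 or Clec9a, markers of type 1 dendritic cells, had 0, 8, 0 and 0 UMIs of Cd209a. Cd209e followed: it was 293, 120.3, 0 and 23.4 CPM in the unmarked cells and 22.2, 90.6, 0 and 0 CPM in the Ccr7 or Fscn1 cells. In the macrophage gate Cd209a was 17.1, 12.7, 1.39 and 1.33 CPM, again lowest in both poly I:C libraries. Its cells with 5 or more C1q UMIs had 8.86, 1.41, 0.412 and 1.08 CPM and the others 29.6, 30.3, 4.89 and 2.5 CPM, with a phenformin ratio to control of 0.159 (0.101 to 0.243) in the first and 1.02 (0.872 to 1.2) in the second.

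**Figure D2:**
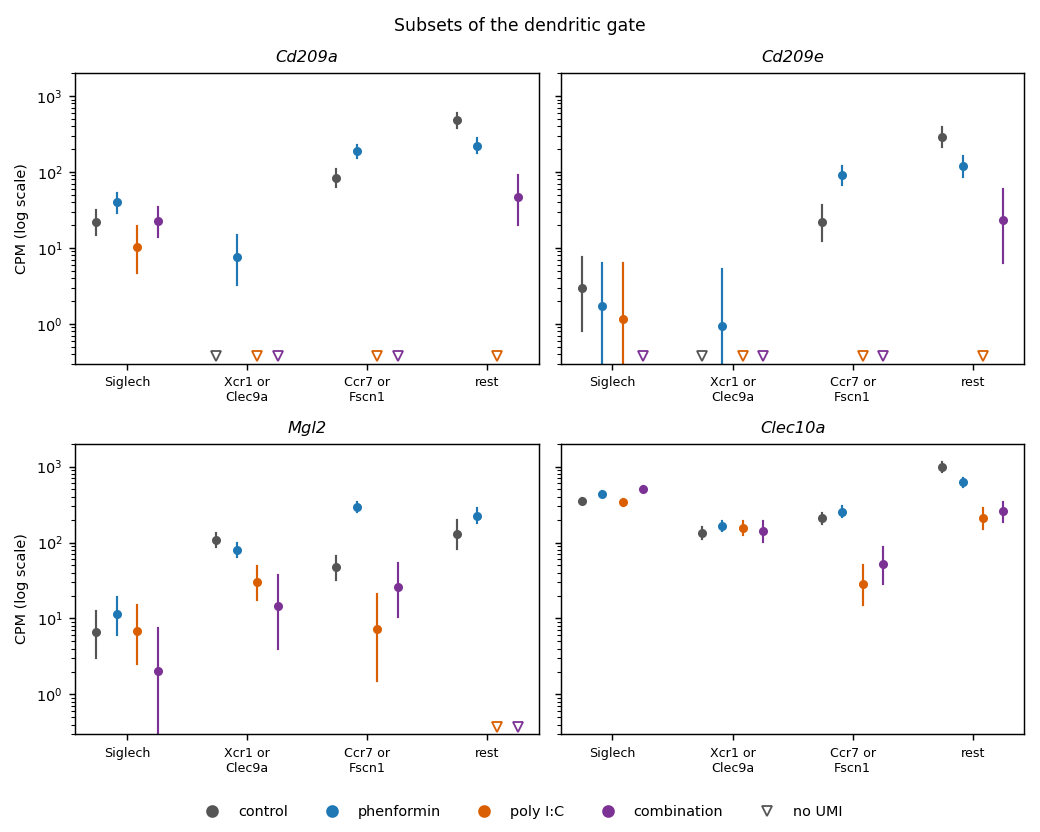
CPM (log axis) of Cd209a, Cd209e, Mgl2 and Clec10a in 4 subsets of the dendritic gate, 1 point per library with its Poisson interval; open triangles stand for libraries without a UMI. Cd209a and Cd209e have none in the Ccr7 or Fscn1 cells of poly I:C and the combination, whereas Clec10a in Siglech cells is at 338 CPM or more in all 4 libraries.

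Mgl2 and Clec10a, the galactose-type lectins, differed in how they stood after poly I:C. They lie 18646 bases apart on chromosome 11 (chr11:70130329-70137550 and chr11:70156197-70170834, plus strand). Mgl2 in the macrophage gate was 185 (179 to 190.4), 209 (204 to 215), 67.9 (65.3 to 70.6) and 47 (44.7 to 49.5) CPM, high in both libraries without poly I:C and low in both with poly I:C. Clec10a was 250.5 (244 to 257), 309 (302 to 315), 268 (263 to 273) and 201 (196 to 206) CPM, highest with phenformin and lowest with the combination. The Mgl2 ratio to control was 1.13 (1.09 to 1.18) in the phenformin library, 0.368 (0.35 to 0.386) in the poly I:C library and 0.255 (0.24 to 0.27) in the combination. The same ratios of Clec10a were 1.23 (1.19 to 1.27), 1.07 (1.04 to 1.11) and 0.802 (0.774 to 0.832), all within 1.5-fold. Set against the product of both single-agent ratios, the combination was 0.611 (0.567 to 0.658) of it for Mgl2 and 0.609 (0.582 to 0.637) for Clec10a. Mgl2 was detected in 44.6%, 45.3%, 26.4% and 17.8% of macrophage-gate cells and in 1.04%, 1.72%, 0.534% and 0.28% of T cells. With each cell thinned to 1000 UMIs the macrophage shares were 12.9%, 13%, 5.15% and 3.45%, in the same order of libraries without poly I:C above those with it. In the last 500 bases of Clec10a transcripts 15.6% of 50-base words also occur in Mgl2, so reads there cannot be told apart.

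The lower Mgl2 level was seen in both kinds of macrophage-gate cell. In cells with 5 or more C1q UMIs (C1q-high) it was 196, 217, 74.1 and 50.5 CPM and in the others (C1q-low) 168, 198, 45.9 and 30.9 CPM. Clec10a differed between them, with a poly I:C ratio to control of 1.2 (1.15 to 1.25) in C1q-high and 0.66 (0.617 to 0.706) in C1q-low cells. Mgl2 in the dendritic gate was 51, 109, 12.7 and 7.7 CPM, 2.15 (1.77 to 2.61) times control with phenformin and again lower with poly I:C. The Ccr7 or Fscn1 cells held 165 of the 340 Mgl2 UMIs of the phenformin library and stood at 47.3, 293, 7.21 and 26.2 CPM, a phenformin ratio of 6.2 (4.23 to 9.36). Clec10a in the dendritic gate was 294, 334, 214 and 349 CPM. It was found in 88.8%, 96.7%, 92.9% and 89.5% of Siglech cells, at 354, 439, 338 and 504 CPM, with poly I:C alone lowest and the combination highest. In the Xcr1 or Clec9a cells Clec10a was 135, 167, 156 and 142 CPM, with overlapping intervals. It was lower in both poly I:C libraries in the remaining subsets, at 997, 628, 212 and 258 CPM in the unmarked cells and 209.7, 256, 28.9 and 52.3 CPM in the Ccr7 or Fscn1 cells. In the Ly6c2-bearing cells Clec10a was 194, 234, 111 and 135 CPM, at 0.573 (0.534 to 0.614) of control with poly I:C. Of these cells 15.7%, 15.3%, 9.92% and 12.1% had 2 or more Siglech UMIs, and the share with Cd3, given above, was higher in both poly I:C libraries. The part of these shares in the Clec10a values was not tested on its own.

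Mrc1, the mannose receptor (chr2:14229392-14332057, plus strand, with the microRNA gene Mir511 inside it), stood at 445 (437 to 454), 472 (464 to 479.6), 465 (459 to 472) and 348 (341 to 354) CPM in the macrophage gate. The combination was lowest, at 0.781 (0.76 to 0.802) of control. The level depended on C1q: it was 587, 635, 566 and 403 CPM in C1q-high and 231, 219, 108 and 91.6 CPM in C1q-low cells. Within the C1q-low cells the poly I:C ratio to control was 0.469 (0.434 to 0.508), against 1.05 (1.02 to 1.07) in the whole gate, where C1q-high cells made up more of the poly I:C library. Across macrophage-gate cells the correlation of Mrc1 with Clec10a was 0.43, 0.513, 0.60 and 0.528, given as a description of cells that share a library. In the Ly6c2-bearing cells Mrc1 was 101, 155, 59 and 38.5 CPM, above control with phenformin and below it with poly I:C and the combination. Its dendritic-gate level was 12.3, 33.1, 10.3 and 6.51 CPM, against 6.21, 5.22, 4.72 and 6.24 CPM in T cells, so that only the combination was near that background.

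**Figure D3:**
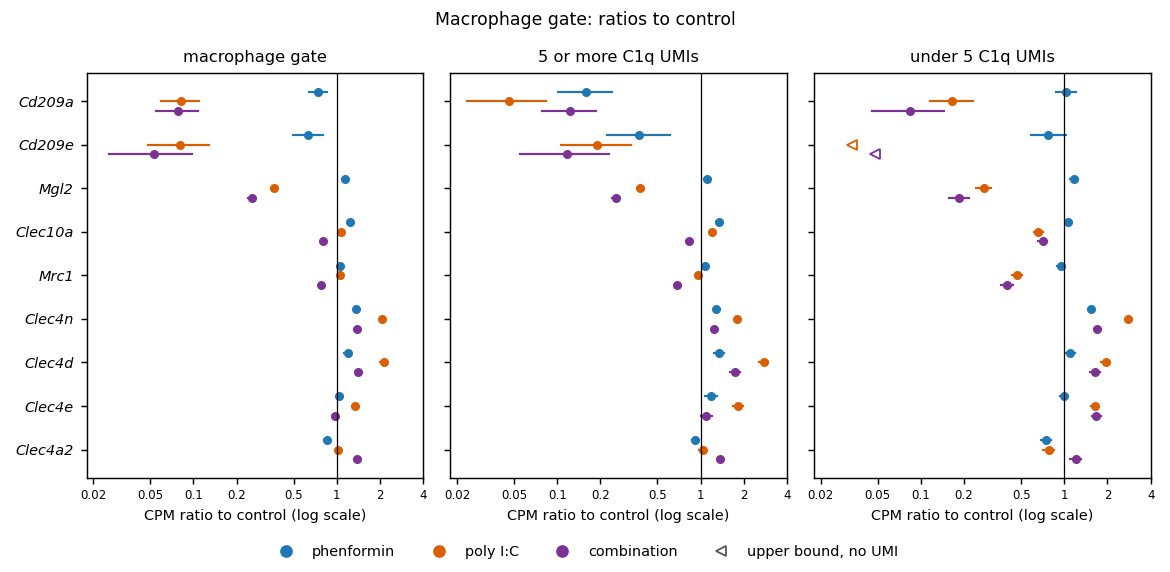
CPM ratio to control (log axis) of the receptors in the whole macrophage gate and in its C1q-high and C1q-low cells, with exact intervals; open triangles are upper bounds where the treated library had no UMI. With poly I:C and with the combination Mgl2, Cd209a and Cd209e lie left of 1 in all 3 panels and Clec4n and Clec4d right of 1.

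The activating receptors Clec4n, Clec4d and Clec4e lie next to each other on chromosome 6 (chr6:123229843-123247021 and chr6:123262111-123275265 on the plus strand, chr6:123281789-123289870 on the minus strand). All 3 were highest with poly I:C alone in the macrophage gate. Clec4n was 274 (268 to 281), 376 (369 to 383), 571 (563 to 579) and 382 (375 to 389) CPM, above control in every treated library, with ratios of 1.37 (1.33 to 1.41), 2.08 (2.02 to 2.14) and 1.39 (1.35 to 1.44). Clec4d was 84.2 (80.5 to 88.1), 101 (97.1 to 104), 178 (174 to 183) and 119 (115 to 123) CPM, with ratios of 1.19 (1.13 to 1.26), 2.12 (2.01 to 2.23) and 1.41 (1.33 to 1.49). Both genes were highest with poly I:C, and the other treated libraries lay between it and control. Clec4e was 105 (100.4 to 109), 109 (105 to 113), 140.0 (136 to 144) and 102 (98.3 to 105) CPM, and only poly I:C stood above the rest, at 1.34 (1.28 to 1.41) times control. In the whole gate adding phenformin to poly I:C went with lower levels, though not for Clec4e in its C1q-low cells, given below. The combination was 0.669 (0.654 to 0.684) of poly I:C alone for Clec4n, 0.666 (0.639 to 0.693) for Clec4d and 0.727 (0.695 to 0.76) for Clec4e. Against the product of both single-agent ratios it was 0.489 (0.47 to 0.508), 0.558 (0.52 to 0.598) and 0.698 (0.652 to 0.748).

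Detection of Clec4n followed its level, at 59.8%, 72%, 87.2% and 73.3% of macrophage-gate cells against 2.38%, 2.96%, 3.08% and 2.4% of T cells. Thinned to 1000 UMIs per cell the macrophage shares were 18.5%, 25.6%, 37.2% and 27.3%. Clec4e was higher in C1q-low cells, at 183, 181, 298 and 306 CPM, than in C1q-high cells, at 52.6, 62.1, 95.5 and 57.6 CPM. Its poly I:C ratio was 1.63 (1.53 to 1.74) in C1q-low and 1.81 (1.67 to 1.97) in C1q-high cells, both above the 1.34 of the whole gate, in which C1q-low cells were fewer with poly I:C. With the combination the Clec4e ratio was 1.67 (1.56 to 1.79) in C1q-low and 1.09 (1.0 to 1.2) in C1q-high cells, against 0.973 (0.923 to 1.03) in the whole gate. Clec4d was higher in cells with 5 or more Arg1 UMIs, at 132, 128, 266 and 215 CPM, than in the others, at 71.2, 89.3, 154 and 99.9 CPM. Poly I:C gave the highest Clec4d level in either. In the Ly6c2-bearing cells Clec4n was 95.5, 175, 331 and 179.6 CPM, at 3.47 (3.23 to 3.73) times control with poly I:C.

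Clec4d and Clec4e were the main receptors of the neutrophil gate. Clec4d stood at 1889 (1797 to 1984), 2246 (2139 to 2357), 1145 (1094 to 1197) and 2234 (2153 to 2317) CPM and was found in 96.3%, 94.9%, 95.3% and 98.6% of cells, whose median depth was 1984, 2269, 2530 and 2316 UMIs. Clec4e stood at 1526 (1444 to 1611), 1348 (1266 to 1435), 746 (705 to 788) and 1226 (1166 to 1288) CPM. Poly I:C alone was lowest for both, where in the macrophage gate it was highest. The poly I:C ratio to control was 0.606 (0.567 to 0.648) for Clec4d and 0.489 (0.452 to 0.529) for Clec4e. The combination was 1.95 (1.84 to 2.07) and 1.64 (1.52 to 1.77) times poly I:C alone, and 1.64 (1.5 to 1.79) and 1.86 (1.66 to 2.08) times the product of both single-agent ratios. The summed macrophage markers of this gate were at a like level in poly I:C and the combination, where both genes differed. Other counts of macrophage-like cells were not alike. Of the neutrophil-gate cells 29.4% with poly I:C and 16.8% with the combination were also in the macrophage gate. Those with 5 or more C1q UMIs were 16.6% and 11.1%. The part of such cells in these values was not tested. Without the cells of 5 or more C1q UMIs the poly I:C ratio was 0.821 for Clec4d, no longer past 1.5-fold, and 0.656 for Clec4e. The Clec4d ratio also moved toward 1 in cells of exactly 1 gate (0.872), as a mean of per-cell CPM (0.958) and with cells thinned to 1000 UMIs (0.97), where Clec4e was 0.681, 0.713 and 0.656. Without the C1q-bearing cells the Clec4d combination ratio to control was 1.56, against 1.18 (1.11 to 1.26) with them. Clec4n, at 457, 429, 421 and 300.4 CPM, was lowest in the combination, at 0.658 (0.57 to 0.76) of control with all cells and 0.662 without them.

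Clec4d and Clec4e also went together cell by cell, with a correlation over macrophage-gate cells of 0.465, 0.491, 0.405 and 0.411. Their upstream bases (RefSeq, GRCm38.p6; chr6:123261857-123262106 on the plus strand and chr6:123289872-123290121 on the minus strand) are shown to set them beside the Cd209 pair, with capitals for the same motifs.
Clec4d: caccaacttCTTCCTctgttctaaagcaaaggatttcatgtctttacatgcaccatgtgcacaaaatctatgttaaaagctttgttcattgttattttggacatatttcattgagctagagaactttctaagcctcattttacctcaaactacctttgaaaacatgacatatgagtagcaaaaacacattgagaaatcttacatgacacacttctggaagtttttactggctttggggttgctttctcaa
Clec4e: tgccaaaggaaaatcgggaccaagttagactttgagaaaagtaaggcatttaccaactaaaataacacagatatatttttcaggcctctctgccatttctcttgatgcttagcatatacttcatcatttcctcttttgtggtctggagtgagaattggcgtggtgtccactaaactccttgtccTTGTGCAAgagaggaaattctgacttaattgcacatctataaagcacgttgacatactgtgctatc
Clec4d has 1 match, to the PU.1 core on the opposite strand, and Clec4e has 1, to the C/EBP letters.

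In the dendritic gate the activating receptors were low. Clec4d was higher in both poly I:C libraries than in the others, and Clec4e was above control in every treated library. Clec4d stood at 6.49, 14.5, 46.9 and 23.7 CPM, from 20, 45, 96 and 40 UMIs, of which 13, 23, 72 and 37 were in Siglech cells. Clec4e was 9.09, 25.7, 45 and 23.1 CPM, highest with poly I:C, and the combination stood at 0.897 (0.595 to 1.33) of phenformin. Neutrophil markers in this gate (5 of 6 with UMIs, Ly6g at 0) summed to 50.3, 71.1, 716 and 855 CPM. They were higher in both poly I:C libraries, as Clec4d was, but highest in the combination, where both genes stood below poly I:C alone; their part in these values was not tested. Limited to cells of exactly 1 gate, no receptor was called higher in any treatment, and without Siglech cells none was with poly I:C or the combination, where the poly I:C ratio was 5.02 for Clec4d and 2.93 for Clec4e. Clec4n was 16.2, 44.1, 43 and 6.51 CPM, above control with either agent and below it with both. Its direction was not stable: the phenformin ratio of 2.72 (1.95 to 3.83) turned to 0.373 with all gate minimums doubled, and the poly I:C ratio of 2.65 (1.85 to 3.83) to 0.173 in cells of exactly 1 gate.

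Clec4a2, the inhibitory receptor (chr6:123106428-123143999, plus strand), stood apart from the activating genes, which lie 85843 bases or more away on the same chromosome. It was 149 (144 to 154), 128 (124 to 132), 151 (147 to 155) and 206 (201 to 211) CPM in the macrophage gate, lowest with phenformin and highest with the combination. Its ratio to control was 0.86 (0.821 to 0.90) in the phenformin library, 1.01 (0.971 to 1.06) in the poly I:C library and 1.39 (1.33 to 1.45) in the combination, and the combination was 1.61 (1.55 to 1.68) times phenformin alone. Against the product of both single-agent ratios the combination was 1.59 (1.5 to 1.69), the only value above 1 among the 7 receptors that passed the filter in this gate. C1q-high cells had 159, 146, 164 and 216 CPM and C1q-low cells 134, 99.3, 104 and 160.1 CPM, with the combination highest in both. It was detected in 54.8%, 52.8%, 64.8% and 65.5% of macrophage-gate cells and 1.19%, 1.89%, 1.3% and 1.76% of T cells. Of the 50-base words in its last 500 bases 8.96% are shared with Clec4a4 or Clec4b1, and the gene model Gm44132 overlaps it, so its count is less certain. Clec4a2 in the neutrophil gate was 54.4, 66.1, 103 and 131 CPM, and its poly I:C and combination ratios of 1.9 (1.37 to 2.69) and 2.41 (1.73 to 3.42) were 1.44 and 1.9 without C1q-bearing cells.

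Mrc1 and Clec10a in the neutrophil gate changed when the C1q-bearing cells were left out. With all cells Mrc1 was 102, 194, 284 and 99.4 CPM and Clec10a 98.2, 174, 175 and 69.1 CPM. Without cells of 5 or more C1q UMIs the Mrc1 ratio to control was 0.622 with phenformin, 0.283 with poly I:C and 0.195 with the combination, against 1.91, 2.79 and 0.977 with them. The phenformin and poly I:C ratios of Clec10a turned from 1.77 and 1.78 to 0.812 and 0.671.

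**Figure D4:**
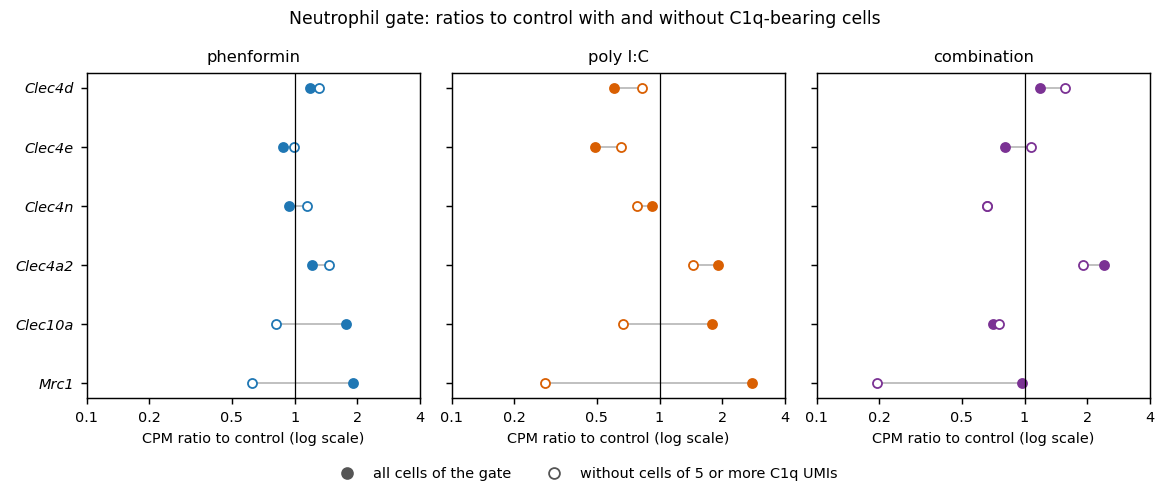
CPM ratio to control (log axis) of 6 receptors in the neutrophil gate, 1 panel per treatment, with all cells and without cells of 5 or more C1q UMIs. With phenformin and with poly I:C Mrc1 and Clec10a cross from above 1 to below 1, while Clec4d and Clec4e stay below 1 with poly I:C.

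A receptor was called when it was at least 1.5-fold from control with 20 CPM and 30 UMIs in the higher library. Of the 9, 7 passed that filter in the macrophage gate, and Cd209a and Cd209e did not. With phenformin there were none higher (0.426% of all genes were) and none lower (0.479% of all genes were). With poly I:C there were 2 higher (Clec4n and Clec4d, against 2.72% of all genes) and 1 lower (Mgl2, against 4.27% of all genes). With the combination there were none higher (3.98% of all genes were) and 1 lower (Mgl2, against 4.64% of all genes). Over all 9 the median difference of log2(CPM + 5) from control was 0.08, 0.06 and -0.31 with the 3 treatments, beside -0.03, -0.09 and -0.03 over all genes that passed. In the dendritic gate 7, 7 and 6 receptors passed. With phenformin there were 4 higher (Mgl2, Mrc1, Clec4n and Clec4e, against 2.23% of all genes) and none lower (5.59% of all genes were). With poly I:C there were 3 higher (Clec4n, Clec4e and Clec4d, against 4.92% of all genes) and 3 lower (Cd209a, Cd209e and Mgl2, against 11.7% of all genes). With the combination there were 2 higher (Clec4e and Clec4d, against 6.96% of all genes) and 3 lower (Cd209a, Cd209e and Mgl2, against 9.47% of all genes). In dendritic-gate cells of exactly 1 gate, where fewer UMIs were left, no receptor was called higher with any treatment.

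Among the Ly6c2-bearing cells 8, 7 and 7 receptors passed the filter. In the phenformin library there were 4 higher (Cd209a, Mgl2, Mrc1 and Clec4n, against 0.973% of all genes) and none lower (1.44% of all genes were). In the poly I:C library there were 1 higher (Clec4n, against 2.79% of all genes) and 2 lower (Clec10a and Mrc1, against 9.41% of all genes). In the combination there were 1 higher (Clec4n, against 3.48% of all genes) and 2 lower (Mgl2 and Mrc1, against 7.48% of all genes). In the neutrophil gate, where the background was large, 7 passed in each comparison. In the phenformin library there were 2 higher (Clec10a and Mrc1, against 6.56% of all genes) and none lower (11.6% of all genes were). In the poly I:C library there were 3 higher (Clec10a, Mrc1 and Clec4a2, against 22.3% of all genes) and 3 lower (Mgl2, Clec4e and Clec4d, against 13.5% of all genes). In the combination there were 1 higher (Clec4a2, against 12.6% of all genes) and 2 lower (Mgl2 and Clec4n, against 15.6% of all genes). Mgl2 had only 51, 31, 68 and 10 UMIs in this gate. In cells of exactly 1 gate no receptor was called higher in the monocyte or the neutrophil gate.

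Of 30 other C-type lectins 7 passed the filter in the macrophage gate with poly I:C, 3 higher and 1 lower, beside 2.72% of all genes higher and 4.27% lower. Higher were Clec5a, an activating receptor, at 52.9 against 26.1 CPM, Cd302 at 147 against 86.4 CPM and Clec12a, an inhibitory receptor, at 179 against 119 CPM. Clec4b1 was the lower one, at 14.7 against 30.6 CPM. With the combination 8 passed, 3 higher and none lower, beside 3.98% of all genes higher and 4.64% lower. Among these Cd209f was 22.4 against 2.4 CPM, so this relative stood high in the combination where Cd209a and Cd209e stood low. With phenformin 7 passed, with Clec5a higher and Clec4b1 lower, beside 0.426% of all genes higher and 0.479% lower. In the dendritic gate Cd209d was 44 against 82.1 CPM with poly I:C, and Cd207 (langerin) was 14.7 with poly I:C and 2.37 with the combination against 37.3 CPM.

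Of 20 signalling genes of the activating receptors 19 passed in the macrophage gate. None was called with phenformin, and with poly I:C as with the combination 1 was higher and 4 were lower. Over all genes the shares were 2.72% higher and 4.27% lower with poly I:C, and 3.98% and 4.64% with the combination. The higher gene was the shared adaptor Fcer1g, at 1624, 1853, 2487 and 2689 CPM. Nfkb1, an NF-kB subunit gene, was 169.7 with poly I:C and 160.5 with the combination against 288 CPM in control, and Rel, another, was 114 and 118 against 199 CPM. With poly I:C, where Clec4n and Clec4d were called higher, the adaptor was thus higher and these transcription factor genes lower. The combination had the same calls of these 3 genes without a call of either receptor. Both receptors were above control there too, by the ratios given above, but under the 1.5-fold limit. Malt1, of the same list, was 169, 209, 145 and 81 CPM, called lower with the combination only, where its change was the list's largest. It was called lower with the combination in the dendritic, monocyte and neutrophil gates too. With poly I:C alone Malt1 was also called lower in the dendritic gate, at 76.2 against 125 CPM, and in the neutrophil gate, at 96.9 against 153 CPM. Syk was 243, 206, 176 and 165 CPM and Card9 7.38, 6.83, 5.62 and 8.98 CPM, neither called. Syk in the neutrophil gate was 533, 445, 226 and 284 CPM, called lower in both poly I:C libraries. The same calls were made in the monocyte gate, at 117 with poly I:C and 103 with the combination against 192 CPM. In the dendritic gate Syk was called lower with poly I:C alone, at 90.4 against 148 CPM. Of 6 inhibitory signalling genes in the macrophage gate 1 was called lower, beside 4.27% of all genes with poly I:C and 4.64% with the combination. This was the docking protein Dok2, at 65.4 with poly I:C and 41 with the combination against 115 CPM. Ptpn6 was 158, 142, 142 and 163 CPM.

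Of 12 genes of alternative activation, the class of Mgl2 and Mrc1, 9 passed in the macrophage gate, and with poly I:C as with the combination 3 were lower and 1 higher. Of all genes 4.27% and 4.64% were lower with these treatments and 2.72% and 3.98% higher. With phenformin 2 were higher and 1 lower, beside 0.426% and 0.479% of all genes. Higher were Folr2, a folate receptor of tissue macrophages, at 34.7 against 18.9 CPM and Chil3 at 163 against 98.1 CPM. Retnla was the lower one, at 320 against 529.7 CPM. Ccl24, an eosinophil chemokine, was 273 with poly I:C and 88.7 with the combination against 2153 CPM in control. Retnla was 93.9 and 190.4 against 529.7 CPM, and Arg1 223 and 217 against 413 CPM. The higher gene with poly I:C and with the combination was again Folr2, at 42.3 and 63.6 against 18.9 CPM. Of 14 cytokine and chemokine genes 8 passed. In the phenformin library 1 was higher and 1 lower, beside 0.426% and 0.479% of all genes. In the poly I:C library 1 was higher and 2 were lower, beside 2.72% and 4.27% of all genes. With poly I:C Cxcl1, a neutrophil chemokine, was higher, at 88.3 against 25.7 CPM. Ccl17 and Ccl22, ligands of the receptor CCR4, were lower, at 70.6 against 223 and 7.55 against 42.9 CPM. The phenformin calls were Cxcl1, also higher (47.4 CPM), and Ccl22, also lower (23.9 CPM). Ccl17 was higher with poly I:C in the dendritic gate, at 364.5 against 64 CPM, and in the monocyte gate, at 57.4 against 9.47 CPM. With phenformin it was called higher in these gates too, at 247 and 66.8 CPM. With the combination it was called higher in the monocyte gate, at 26.1 CPM, but not in the dendritic gate. In the neutrophil gate it was lower in every treated library, at 48.6 (phenformin), 28.9 (poly I:C) and 2.33 (combination) against 593 CPM. In the macrophage gate with the combination none of the cytokine and chemokine genes was higher and 3 were lower, Ccl17 at 23 CPM among them. Of all genes 3.98% were higher and 4.64% lower.

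The genes most like each receptor were ranked by Pearson r of log2(CPM + 5) over the 16 profiles of 4 gates in 4 libraries, among 6979 genes. The profiles share libraries, and cells where gates overlap, so r is a description. Clec4d was closest to Arg2 (0.993), Trem1 (0.989) and Dgat2 (0.989), and Clec4e to Trem1 (0.988), Arg2 (0.986) and Ppp1r3b (0.983), 2 of the 3 in common. Mrc1 was closest to Adam15 (0.983), Mmp12 (0.979) and Arg1 (0.974). Clec4n was closest to Fcgr3 (0.973), Nos2 (0.972) and Fcgr4 (0.967), which include 2 Fc receptor genes. Clec4a2 was closest to Clec4a1 (0.981), Hacd4 (0.977) and Clec4a3 (0.977), which include 2 of its own family. Clec10a was closest to Mgat1 (0.963), Tmtc3 (0.926) and Zcchc24 (0.918) and Mgl2 to Rapgef2 (0.919), Vdr (0.91) and Apmap (0.893). Cd209a was closest to Chuk (0.924), Tnip3 (0.908) and Nrde2 (0.906) and Cd209e to Nrde2 (0.887), Hps3 (0.869) and Tnip3 (0.857). Between receptors the highest values were those of Clec4d with Clec4e (0.989), Cd209a with Cd209e (0.927) and Mrc1 with Clec4a2 (0.924), and the lowest was that of Clec10a with Clec4e (-0.767).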

How the data were processed

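The authors deposited raw UMI counts per gene and cell, made with Cell Ranger 3.1.0 on mm10 and GRCm38 per the submitters' processing notes; the annotation release is not given in the sources used here. Per the labels, 10000 cells were loaded per condition and CD45 purity was above 90%. Barcodes with fewer than 200 genes, or with 20% or more of their UMIs from mitochondrial genes, were dropped, and doublets were not removed except in an alternative.

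Gate counts were summed and scaled to CPM; gate totals ran from 740876 to 37339307 UMIs. Intervals of levels (exact Poisson), shares (exact binomial) and ratios (exact conditional) treat UMIs as independent; that of the combination against the product of both single-agent ratios is a log-normal approximation. The floor of a count of 0 is 3 UMIs. The calculations were tested on simulated data. All receptors were named in every gate. From the other lists came up to 4 genes per gate and comparison with the largest change past 1.5-fold. Chosen after their values were seen were Syk and Card9 in the macrophage gate and Ptpn6. So were Syk in the dendritic gate and Malt1 in the neutrophil gate with poly I:C. The members, gates and lists were chosen with earlier results of these data known. There were 10 planned and 3 added alternatives. Positions are from GENCODE vM21 and RefSeq promoters matched 8 of the 10 genes. Python 3.11.15, numpy 2.4.6, scipy 1.17.1, R 4.3.3 and edgeR 4.0.16 (TMM scaling) were used.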

Additional observations from a re-analysis of the deposited data

Results flagged for a closer look

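Some receptors had calls in opposite directions, either for the same agent given without and with the other agent or for the same comparison in different gates. None of these differences was tested, since each treatment had 1 library.

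In the dendritic gate Clec4n was higher with poly I:C over control (2.65) and lower with poly I:C on top of phenformin (0.148). The phenformin ratio of Clec4n was 2.72 over control and 0.151 on top of poly I:C. The same ratios of Clec4e were 2.83 and 0.514.

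In the Ly6c2-bearing cells of the monocyte gate the phenformin ratio of Mgl2 was 2.31 over control and 0.565 on top of poly I:C. For Mrc1 these ratios were 1.54 and 0.652, and for Clec4n 1.83 and 0.542.

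For Clec10a in the neutrophil gate the poly I:C ratio was 1.78 over control and 0.397 on top of phenformin, and the phenformin ratios were 1.77 and 0.395. For Mrc1 the poly I:C ratios were 2.79 and 0.511, and those of phenformin 1.91 and 0.35. Without cells of 5 or more C1q UMIs the values above 1 of both genes fell below 1.

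Between gates, poly I:C over control was 0.573 for Clec10a in the monocyte and 1.78 in the neutrophil gate, and for Mrc1 0.585 and 2.79. Siglech cells made up 15.7% of the monocyte gate in control and 9.92% with poly I:C, and cells with 2 or more Cd3 UMIs 28.3% and 43.3%. Clec4e was 4.94 in the dendritic and 0.489 in the neutrophil gate. Clec4d was 7.22 in the dendritic, 2.12 in the macrophage and 0.606 in the neutrophil gate. Its neutrophil ratio was no longer past 1.5-fold without C1q-bearing cells. Without Siglech cells neither Clec4d nor Clec4e was called higher with poly I:C in the dendritic gate. The combination over control was 1.88 for Clec4n in the monocyte and 0.658 in the neutrophil gate.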

How the results depend on the processing

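No replicate could be left out and no paired analysis was possible because each treatment had 1 library. The alternatives that split the dendritic, monocyte and neutrophil gates were chosen after seeing the data. Of 533 values past 1.5-fold under the settings of the report, 441 stayed past it in the same direction, counted over all alternatives: 69 of 70 with TMM, 68 of 70 with the stricter cell filter, 26 of 51 in cells of exactly 1 gate and 9 of 19 in the neutrophil gate without C1q-bearing cells. The cause of each change was not tested.

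These ratios changed direction. In the dendritic gate Clec4n with doubled minimums was 0.373 (phenformin over control) and 1.08 (combination over phenformin), and 0.173 (poly I:C over control) in cells of exactly 1 gate. Clec4d was 0.374 (combination over phenformin) without Siglech cells. In monocyte-gate cells of exactly 1 gate Cd209a and Clec4n were 0.936 and 0.983 (phenformin over control), and Mgl2 was 1.21 (combination over control) and 1.7 (combination over poly I:C). In neutrophil-gate cells of exactly 1 gate Clec10a was 0.864 (poly I:C over control) and 2.02 (combination over poly I:C), Mrc1 0.101 (poly I:C over control) and Clec4a2 0.912 (combination over phenformin). Without C1q-bearing cells Clec10a was 0.812, 0.671 and 1.12 (phenformin and poly I:C over control, combination over poly I:C) and Mrc1 0.622 and 0.283 (phenformin and poly I:C over control). Thinned, Mrc1 was 0.659 (phenformin over control).

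Counts of members called higher or lower than control moved as follows, with the treatments in brackets. Thinning, the rule of exactly 1 gate and leaving out Siglech cells leave fewer UMIs to reach the minimum of 30. In cells of exactly 1 gate, in the dendritic gate the higher count went from 4, 3 and 2 to 0, 0 and 0 (phenformin, poly I:C and the combination), in the macrophage gate the higher count went from 0 to 1 (the combination), in the monocyte gate the higher count went from 4, 1 and 1 to 0, 0 and 0 (phenformin, poly I:C and the combination) and the lower count went from 2 to 4 (poly I:C), in the neutrophil gate the higher count went from 2, 3 and 1 to 0, 0 and 0 (phenformin, poly I:C and the combination) and the lower count went from 3 and 2 to 0 and 0 (poly I:C and the combination). With cells thinned to 1000 UMIs, in the dendritic gate the higher count went from 4, 3 and 2 to 0, 0 and 0 (phenformin, poly I:C and the combination) and the lower count went from 3 and 3 to 0 and 0 (poly I:C and the combination), in the macrophage gate the higher count went from 0 to 1 (the combination), in the monocyte gate the higher count went from 4 and 1 to 2 and 2 (phenformin and the combination), in the neutrophil gate the higher count went from 2, 3 and 1 to 0, 0 and 0 (phenformin, poly I:C and the combination) and the lower count went from 3 and 2 to 1 and 1 (poly I:C and the combination). Without Siglech cells, in the dendritic gate the higher count went from 3 and 2 to 0 and 0 (poly I:C and the combination) and the lower count went from 3 to 5 (the combination). With gate minimums doubled, in the dendritic gate the higher count went from 2 to 0 (the combination), in the monocyte gate the lower count went from 2 to 1 (the combination), in the neutrophil gate the lower count went from 0 to 1 (phenformin). With the mean of per-cell CPM, in the dendritic gate the higher count went from 2 to 1 (the combination), in the macrophage gate the higher count went from 0 to 1 (the combination), in the monocyte gate the higher count went from 4 and 1 to 2 and 2 (phenformin and the combination), in the neutrophil gate the higher count went from 2 to 0 (phenformin) and the lower count went from 3 to 0 (poly I:C). Without the filter on low counts, in the dendritic gate the lower count went from 3 to 5 (the combination), in the macrophage gate the lower count went from 0, 1 and 1 to 1, 3 and 3 (phenformin, poly I:C and the combination), in the monocyte gate the lower count went from 2 and 2 to 4 and 4 (poly I:C and the combination). Without cells that had lymphocyte or epithelial UMIs, in the monocyte gate the higher count went from 4, 1 and 1 to 2, 2 and 3 (phenformin, poly I:C and the combination), in the neutrophil gate the lower count went from 0 to 1 (phenformin). With the monocyte gate limited to cells with a macrophage-marker UMI and without Cd3, Cd79 or Siglech cells, in the monocyte gate the higher count went from 4 and 1 to 2 and 2 (phenformin and the combination) and the lower count went from 2 to 4 (the combination). At a fold of 2, in the monocyte gate the higher count went from 4 and 1 to 1 and 0 (phenformin and the combination) and the lower count went from 2 to 0 (poly I:C), in the neutrophil gate the higher count went from 2 and 3 to 0 and 1 (phenformin and poly I:C) and the lower count went from 3 and 2 to 1 and 1 (poly I:C and the combination). With TMM scaling, in the monocyte gate the higher count went from 1 to 2 (poly I:C), in the neutrophil gate the lower count went from 2 to 1 (the combination). Without C1q-bearing cells, in the neutrophil gate the higher count went from 2, 3 and 1 to 0, 0 and 2 (phenformin, poly I:C and the combination) and the lower count went from 0 to 1 (phenformin). With the stricter cell filter (500 genes, 10% mitochondrial), in the neutrophil gate the lower count went from 2 to 1 (the combination).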
